A study of Mus musculus with 20 samples.

Results

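The secreted ligands that act on blood vessels were followed in liver RNA of mice given benzo(a)pyrene (BaP), a polycyclic aromatic hydrocarbon and liver mutagen. The set held 9 genes, *Vegfa*, *Vegfb*, *Vegfc*, *Pgf*, *Angpt1*, *Angpt2*, *Hgf*, *Pdgfb* and *Apln*, chosen by name as candidate drivers of a rise in endothelial transcripts and not by their own values. All probes whose RefSeq accession belongs to these genes were taken, which gave 17 of the 41174 probes on the array. Of these, 13 probes of 8 genes were present, meaning a liver signal above that of the negative controls on 4 or more arrays of some treatment group. The same rule passed 27346 probes of 12986 genes on the whole array.

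The animals were male Muta™Mouse, the transgenic strain 40.6 that carries a *lacZ* reporter used for mutation counts, and were 25 weeks of age. All 20 mice, controls included, carried the transgene and were gavaged daily for 28 days with olive oil, alone in the 5 controls (replicates 1 to 5) or with BaP. Replicates 6 to 10 received 25 mg/kg/day, replicates 11 to 15 received 50 mg/kg/day and replicates 16 to 20 received 75 mg/kg/day. Livers were taken 3 days after the last dose, and RNA of each mouse was set against a common reference RNA of 11 mouse cell lines on 1 two-color array. Values are the log2 ratio of liver over reference unless stated otherwise. A ratio of 0 is the level of the reference, so that ratios of different genes do not rank their levels in liver.

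Vascular endothelial growth factors bind the receptor tyrosine kinases *Flt1*, *Kdr* and *Flt4* on endothelial cells and drive their growth, survival and permeability, with *Vegfc* acting mostly on lymphatic vessels. Angiopoietins act on the endothelial receptor *Tek*, where *Angpt1* stabilizes vessels and *Angpt2* mostly opposes it. In the liver, hepatocytes are a main source of *Vegfa*, while *Hgf*, the growth factor for hepatocytes that acts through *Met*, is made by stellate, sinusoidal endothelial and other nonparenchymal cells.

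The liver channel stood well above background at 51.9 to 67.5% of spots, highest in control replicate 4, and 0 spots were saturated. The arrays lay on 6 slides, of which slides 1, 2 and 3 each held an array of every group, slide 6 held only controls 2 and 3 and 50 mg/kg/day replicates 12 and 13, and the rest held exposed arrays of the lowest and highest dose. Dose nearly coincided with the position on the slide (all 25 mg/kg/day arrays at position 2, all 75 mg/kg/day arrays at position 4), and these cannot be told apart. The labels name both lungs and liver as the tissue. Of 10 hepatocyte markers, 9 were on the array all 9 were present, and their mean ratio lay between 4.22 and 5.42 in control livers. Of 9 lung epithelium markers on the array, *Sftpb*, *Sftpc* and *Cldn18* were not present. The other 6 gave 0 calls at any dose and a median change of 0.04 at 75 mg/kg/day, with the smallest p values for *Sftpd* (1.19, adjusted p = 0.0688, limma), *Napsa* (-0.35) and *Ager* (0.15).

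No ligand passed the test at any dose. A transcript was called when limma gave a Benjamini-Hochberg adjusted p under 0.05 over all present probes and a change over 1.5-fold. At 25 mg/kg/day, 0 of the 13 ligand probes were called, with 0% of all present probes called. At 50 mg/kg/day, again 0 of 13 were called, with 0% of all present probes called. At 75 mg/kg/day, 0 of 13 were called, with 0.135% of all present probes called. In a fit with dose as a number, 0 ligand probes rose, with 0.154% of all present probes rising at an adjusted p under 0.05, and 0 fell, with 0.00366% falling. With slide as a fixed block in that fit, 1 ligand probe was called, the second of *Vegfb*, described below. At an unadjusted p under 0.05, the lowest dose had 2 ligand probes, *Hgf* higher and *Apln* lower, where 7.81% of present probes reached that level. The middle dose had 2, *Hgf* and a second probe of *Vegfb*, both higher, where 6.7% did so, and the highest dose had the same 2, where 11.2% did so. Exposed and control arrays overlapped for every ligand probe at every dose, while 1.22, 0.823 and 1.52% of present probes separated them fully at the 3 doses. The median change of the 8 genes was -0.09, -0.02 and 0.02 on the log2 scale from the lowest to the highest dose, beside 0.00 over all present probes at each dose.

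**Figure D1:**
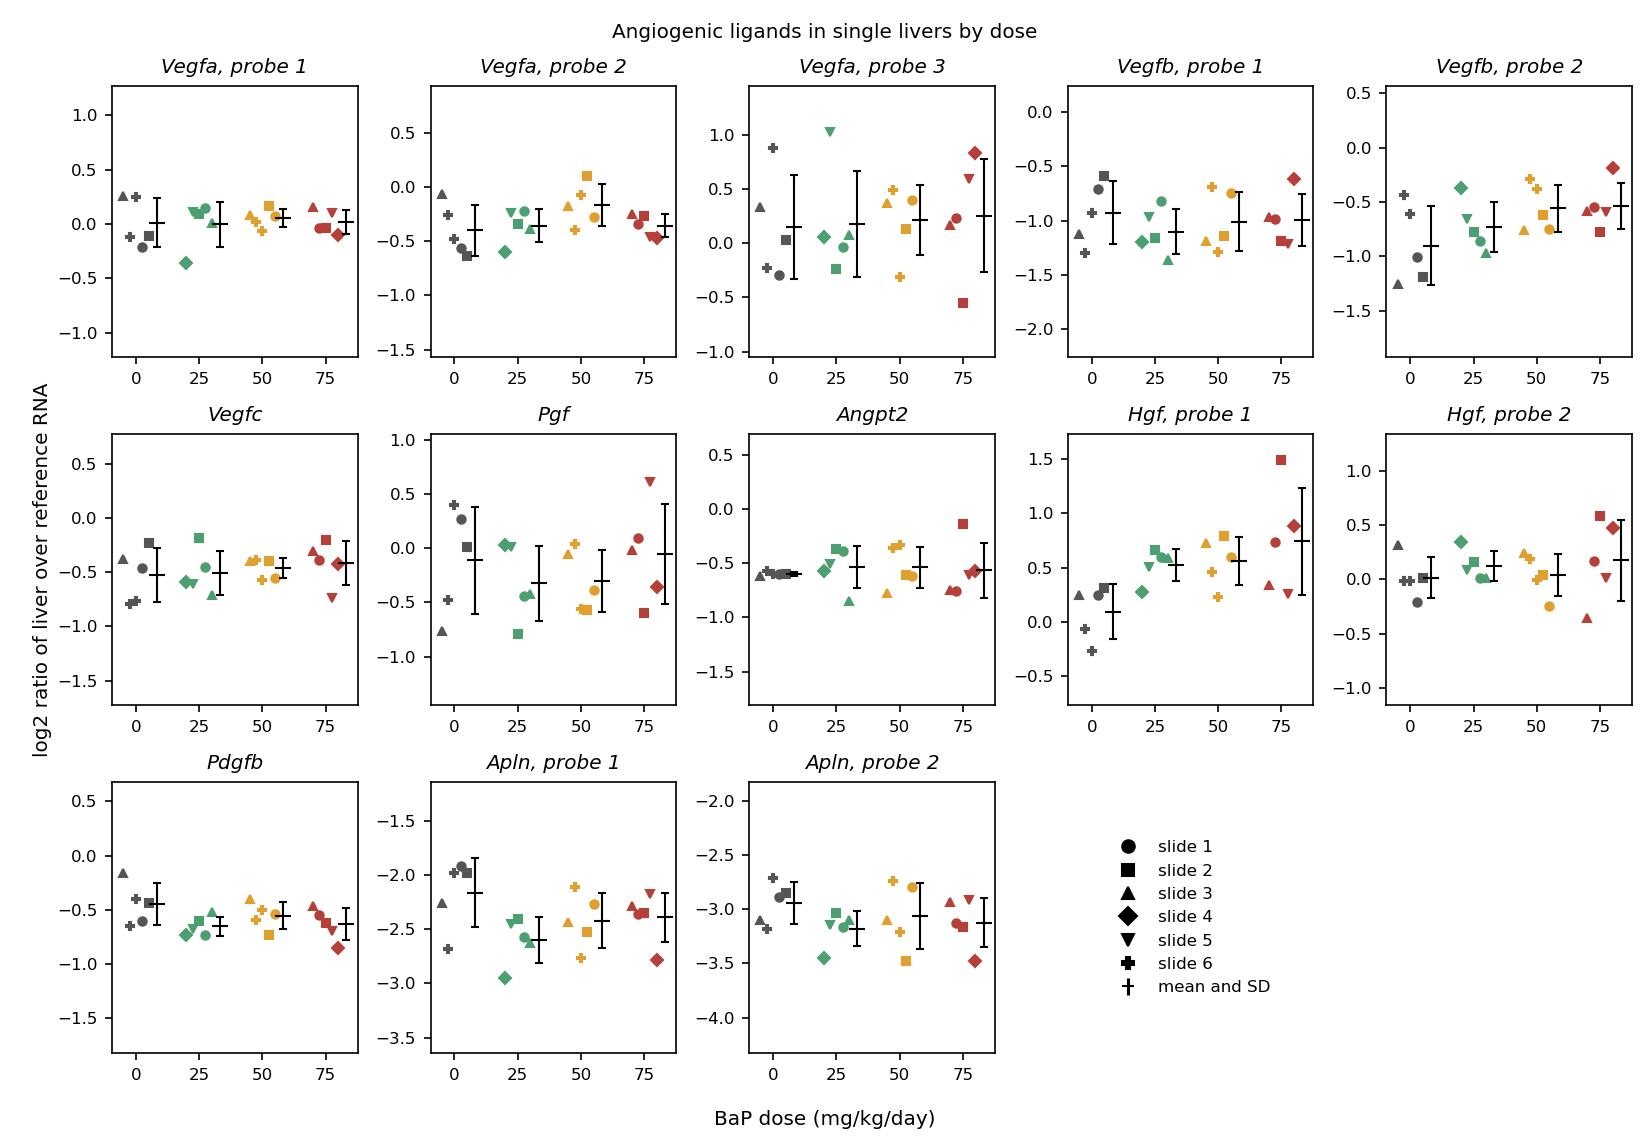
Log2 ratio of liver over reference RNA (vertical axis, the same span of 2.5 in each panel) against BaP dose in mg/kg/day for the 13 present ligand probes, numbered by brightness within a gene, with 1 point per liver shaped by slide and the mean and SD of 5 livers beside them. The brighter *Hgf* probe runs from -0.27 to 0.31 in the controls and from 0.26 to 1.49 at the highest dose, while in every panel the exposed livers overlap the controls.

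*Hgf* had the largest positive change of the ligands at each dose. Its brighter probe, well above background on all 20 arrays, read 0.25, -0.06, -0.27, 0.25 and 0.31 in control livers 1 to 5. At 25 mg/kg/day it read 0.28, 0.51, 0.66, 0.60 and 0.59 in livers 6 to 10, and at 50 mg/kg/day 0.73, 0.46, 0.23, 0.79 and 0.60 in livers 11 to 15. At 75 mg/kg/day it read 0.34, 0.74, 1.49, 0.26 and 0.88 in livers 16 to 20. In each exposed group 4 of 5 livers lay above all controls, and the lowest values of the exposed groups lay inside the control range. The log2 fold change was 0.43 (SE 0.18, adjusted p = 0.636, limma) at the lowest dose and 0.47 (SE 0.18, adjusted p = 0.697) at the middle dose. At the highest dose it was 0.65 (SE 0.18, 95% interval 0.26 to 1.03), 1.56-fold, with an unadjusted p of 0.00207 and an adjusted p of 0.191 in limma. None of these passed the threshold.

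The spread of *Hgf* was widest at the highest dose, with an SD of 0.49 against 0.25 in the controls, and replicate 18 alone read above 1. Without that liver the change at 75 mg/kg/day was 0.46, and over all single livers left out it lay between 0.46 and 0.77 at adjusted p between 0.0744 and 0.452. Within slides the difference from the control of the same slide was 0.35 on each of slides 1, 2 and 3 at the lowest dose. It was 0.35, 0.48, 0.48 and 0.51 on slides 1, 2, 3 and 6 at the middle dose, and 0.49, 1.18 and 0.09 on slides 1, 2 and 3 at the highest dose. The brighter probe was thus above the control on every slide that held both, by little on slide 3 at the highest dose. With slide as a block in the model the change at 75 mg/kg/day was 0.59 (SE 0.17, adjusted p = 0.158, limma).

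A second *Hgf* probe was dim, well above background on 6 of 20 arrays and on 0 of 5 control arrays. It moved less, by 0.11, 0.03 and 0.16 (SE 0.15 each) at the 3 doses. Its direction differed between slides. At the lowest dose its difference from the control of the same slide was 0.23, 0.16 and -0.30 on slides 1, 2 and 3. At the middle dose it was -0.04, 0.03, -0.08 and 0.12 on slides 1, 2, 3 and 6. On slides 1, 2 and 3 at the highest dose it was 0.38, 0.58 and -0.67. The change of the brighter probe exceeded that of the dimmer one by 0.48 at 75 mg/kg/day (exact permutation test over 5 and 5 arrays, two-sided, p = 0.0397, adjusted p = 0.317 over 15 such probe comparisons), and the probes correlated at r = 0.53 over the 20 arrays. The position of the probes in the transcript was not analysed here.

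**Figure D2:**
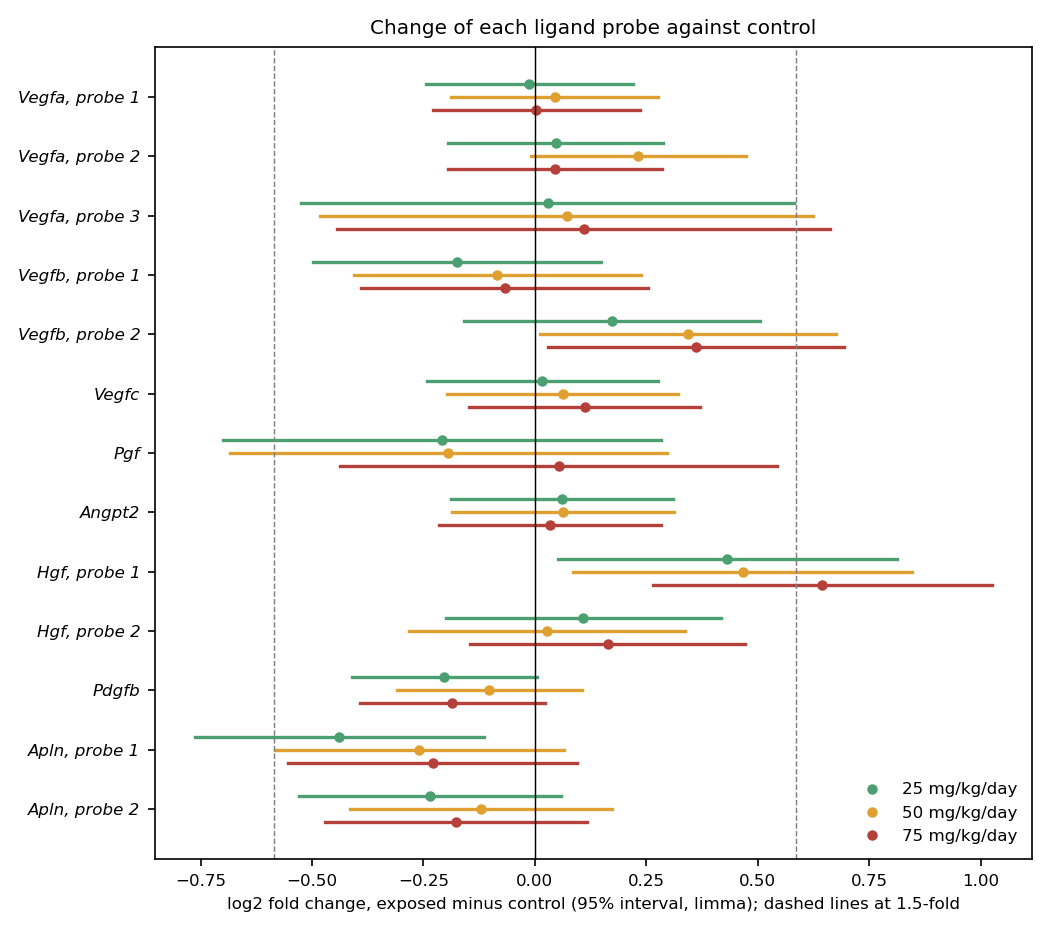
Log2 fold change against the controls (horizontal axis) with its 95% interval from limma for each present ligand probe at 25, 50 and 75 mg/kg/day, with dashed lines at a change of 1.5-fold. The intervals of the brighter *Hgf* probe lie above 0 at all 3 doses before adjustment, reaching from 0.26 to 1.03 at the highest dose, and those of *Vegfa* probe 1 lie close around 0.

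*Vegfa*, the main growth factor of endothelial cells, did not pass the test with any of its 3 probes. Its brightest probe, spotted 10 times on each array, read 0.26, -0.12, 0.25, -0.21 and -0.11 in the controls and 0.16, -0.04, -0.04, 0.10 and -0.10 at 75 mg/kg/day. The exposed livers lay within the range of the controls. The change at 75 mg/kg/day was 0.00 (95% interval -0.23 to 0.24), which spans 0.853 to 1.18-fold. A second probe gave 0.05 (95% interval -0.20 to 0.29). Probe 3, assigned to another *Vegfa* transcript, varied more between livers of a group (SD 0.48 in the controls) and gave 0.11 (95% interval -0.44 to 0.66), an interval that does not exclude a change of 1.5-fold upward. At the lower doses the log2 fold changes of the brightest probe were -0.01 and 0.04. Probe 2, which is nearly as bright, gave 0.05 and 0.23 there, the latter being the largest change of any *Vegfa* probe (95% interval -0.01 to 0.47, unadjusted p = 0.0582, adjusted p = 0.746, limma).

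The 2 probes of *Vegfb*, which binds *Flt1* and is best known from muscle and fat, went different ways. The brighter probe changed by -0.17, -0.08 and -0.07 at the 3 doses (SE 0.16 each). The second probe, well above background on all 20 arrays, read -1.26, -0.44, -0.61, -1.01 and -1.19 in control livers 1 to 5 and -0.58, -0.55, -0.78, -0.59 and -0.19 in livers 16 to 20 at 75 mg/kg/day. The controls fell apart by slide, with both slide 6 controls above the other 3, and 1 exposed liver lay above all controls. Its log2 fold changes were 0.17, 0.34 and 0.36 (SE 0.16 each), at adjusted p of 0.797, 0.731 and 0.400 in limma. On every slide with both groups this probe was above the control, by 0.45, 0.41 and 0.68 on slides 1, 2 and 3 at the highest dose, where the brighter probe differed by -0.28, -0.59 and 0.15. With slide as a block the second probe changed by 0.44 at the highest dose (SE 0.10, unadjusted p = 0.000406, adjusted p = 0.0916, limma). In the dose trend with slide as a fixed block it rose by 0.28 per 50 mg/kg/day (adjusted p = 0.0444, limma, with 0.307% of present probes rising there). The call was lost with slide as a random block, where 0 ligand probes were called, and without a block, where the slope was 0.25 (adjusted p = 0.458). This was the only ligand probe called in any setting tried. The probes correlated at r = -0.05 over the 20 arrays, and the difference between their changes at 75 mg/kg/day was -0.43 (brighter minus dimmer, exact permutation p = 0.127, adjusted p = 0.381).

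The other members of the family did not pass the test either. *Vegfc* ranged from -0.79 to -0.23 in the controls and from -0.74 to -0.20 at 75 mg/kg/day, a log2 fold change of 0.11 (95% interval -0.15 to 0.37). *Pgf*, the placental growth factor that binds *Flt1*, was well above background on 19 arrays and scattered widely, from -0.76 to 0.40 in the controls and from -0.60 to 0.61 at 75 mg/kg/day. Its change was 0.05 (95% interval -0.44 to 0.54) at that dose and -0.21 and -0.19 at the lower doses. On slides 1, 2 and 3 the *Pgf* difference at 75 mg/kg/day was -0.18, -0.61 and 0.74, so that its direction differed between slides.

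*Angpt2*, which endothelial cells release on activation, read between -0.62 and -0.57 in the 5 controls, an SD of 0.02, and more widely in the exposed livers (-0.85 to -0.37, -0.77 to -0.33 and -0.76 to -0.14 from the lowest to the highest dose). The log2 fold changes were 0.06, 0.06 and 0.03 (SE 0.12 each). Whether the spread itself differed between groups was not tested. Its counterpart *Angpt1* had no measured level: both probes failed the presence rule, being well above background in liver on 1 and 0 of 20 arrays, although the brighter probe was well above background in the reference on all 20.

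*Pdgfb* and *Apln* had negative changes at every dose. *Pdgfb*, which endothelial cells release to recruit pericytes, ranged from -0.65 to -0.16 in the controls and changed by -0.20, -0.10 and -0.19 (SE 0.10 each) at the 3 doses, with an adjusted p of 0.498 in limma at the highest. A second *Pdgfb* probe was not present. *Apln*, the ligand of the endothelial receptor *Aplnr*, read -2.26, -2.68, -1.98, -1.92 and -1.98 in the controls with its brightest probe. At 25 mg/kg/day it read -2.95, -2.45, -2.41, -2.57 and -2.63 in livers 6 to 10, below 4 of the 5 controls in all 5 livers. The log2 fold change was -0.44 (SE 0.16, unadjusted p = 0.0104, adjusted p = 0.636, limma) at that dose, and the change was -0.26 and -0.23 at the middle and highest doses. *Apln* was thus lowest against the controls at the lowest dose. A second probe gave -0.24, -0.12 and -0.18 (SE 0.14 each) and followed the first over the 20 arrays (r = 0.84), and the remaining *Apln* probe was not present. On slides 1, 2 and 3 the first probe differed by -0.66, -0.43 and -0.37 at the lowest dose.

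The precision limits what these arrays could show. At 75 mg/kg/day the 95% interval lay within 1.5-fold in both directions for 10 of 13 ligand probes (77.4% of all present probes). For the probe that stands for each gene, this was so for 7 of 8 genes, *Hgf* being the exception.

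The receptors of these ligands, all 11 of which were present, gave 0 calls at any dose and a median change of 0.03 at 75 mg/kg/day. The smallest p values belonged to *Tie1*, an endothelial receptor partner of *Tek*, which changed by 0.55 on the log2 scale (SE 0.14, adjusted p = 0.145, limma), and to *Kdr*, the main *Vegfa* receptor, with 0.58 (SE 0.16, adjusted p = 0.191). *Tie1* exceeded all controls in 3 of 5 livers and *Kdr* in 4 of 5. *Nrp1*, a coreceptor for *Vegfa*, gave -0.25 (adjusted p = 0.575). *Met*, named here after its values were seen because it is the *Hgf* receptor, gave 0.19 (SE 0.27, adjusted p = 0.839). The median change of the list was 0.06 with slide as a block.

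Of 13 present genes for other angiogenic ligands and activators, 0 were called at any dose, with a median change of 0.02 at 75 mg/kg/day. *Hgfac*, the protease that activates the *Hgf* protein, read above all controls in 5 of 5 livers at 75 mg/kg/day, where 0.937% of present probes did so, and its mean ratio changed by 0.50 (SE 0.12, adjusted p = 0.121, limma). *Pdgfa* gave 0.44 (adjusted p = 0.348). *Angpt4*, well above background on 2 of 20 arrays, gave -0.22 (adjusted p = 0.417). All 8 angiogenesis inhibitors were present and 0 were called at any dose. At 75 mg/kg/day 6 had positive and 2 negative changes, with a median of 0.19, or 0.12 with slide as a block. *Timp3*, a metalloproteinase inhibitor that also blocks *Kdr*, had the smallest p among them with 0.37 (adjusted p = 0.411), followed by *Col18a1*, the source of endostatin, with 0.26 (adjusted p = 0.457) and *Vash1* with 0.31 (adjusted p = 0.623).

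Hypoxia raises *Vegfa* through the transcription factors *Hif1a* and *Epas1*. Of the 17 genes of this pathway and its targets on the array, all were present and 0 were called at any dose. At 75 mg/kg/day 6 had positive and 11 negative changes, with a median of -0.05. *Ddit4* gave 0.29 (adjusted p = 0.440, limma), *Egln1*, the oxygen sensor, gave -0.26 (adjusted p = 0.445) and *Pdk1* gave 0.24 (adjusted p = 0.522). The mean of the list, centered by gene, lay between -0.05 and 0.04 in the controls and between -0.10 and 0.04 at the highest dose, so that the groups overlapped.

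**Figure D3:**
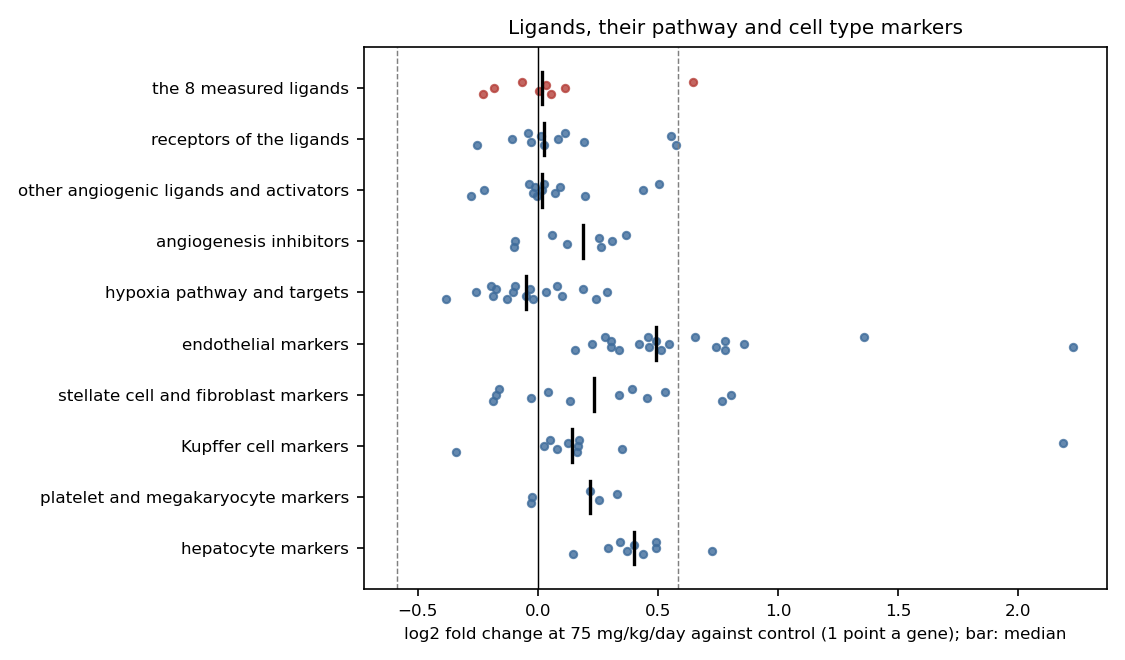
Log2 fold change at 75 mg/kg/day against control (horizontal axis) for the 8 measured ligands and for genes of each list, 1 point per present gene with a bar at the median and dashed lines at 1.5-fold. The medians are 0.02 for the ligands, 0.03 for their receptors, 0.19 for the angiogenesis inhibitors and -0.05 for the hypoxia genes. They are 0.49 for the 19 endothelial and 0.40 for the 9 hepatocyte markers, all of which lie above 0.

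The endothelial markers were listed with earlier results of these data known, so that their count of positive changes is a description and not a test. All 19 present endothelial markers of 20 had a positive change at 75 mg/kg/day, with a median of 0.49, and 2 were called. *Mmrn2*, a matrix protein of the endothelium, changed by 1.36 (SE 0.14, adjusted p = 0.0001003, limma). *Lyve1*, the hyaluronan receptor of sinusoidal and lymphatic endothelium, changed by 2.23 (SE 0.40, adjusted p = 0.0189). At the lower doses 0 were called, with medians of 0.43 and 0.37. The 9 hepatocyte markers were positive in the same arrays as well, with medians of 0.33, 0.27 and 0.40 from the lowest to the highest dose and 0 called. The difference between these lists was not tested. Endothelial receptors outside this marker list differed among themselves at 75 mg/kg/day. *Kdr* and *Tie1* gave 0.58 and 0.55, while *Flt1* gave -0.04, *Tek* -0.11, *Aplnr* 0.03 and *Flt4* 0.11, none of them called. The positive change of the listed markers was thus not shared in size by all endothelial genes. In bulk liver, more endothelial cells and more RNA per endothelial cell cannot be told apart. The mean of the 19 markers, centered by gene and called the endothelial level below, ran from -0.75 to -0.12 in the controls, from -0.17 to 0.34 and -0.14 to 0.26 at the lower doses and from -0.05 to 0.60 at 75 mg/kg/day. Within slides 1, 2 and 3 the level differed from the control by 0.50, 0.95 and 0.13 at the highest dose.

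Each of the 8 measured ligands was set against the endothelial level over the 20 arrays, which holds none of them, with permutation p values from 100000 relabellings and adjustment over the 8 genes. *Hgf* followed it most closely, at r = 0.85 (p = 0.00001, the smallest these relabellings can give, adjusted p = 0.00008) and rho = 0.85 (adjusted p = 0.00016). With slide means subtracted and relabelling within slides, r was 0.80 (adjusted p = 0.0263) and rho 0.79 (adjusted p = 0.018). Without control replicate 2 and 75 mg/kg/day replicate 18, which lay farthest from the median endothelial level, r was 0.79 (p = 0.00006) and rho 0.80 (p = 0.00012). The relation held without these arrays. Of 12790 genes outside the marker list, *Hgf* included, 0.156% correlated with the endothelial level as highly as *Hgf* did, and 0.61% after the slide means were removed.

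Dose was shared by both measures, and therefore the mean of each treatment group was removed in another setting, chosen after seeing the data. Slide means stayed in the values there, and dose and slide were not removed together. *Hgf* still followed the endothelial level among livers of the same dose, at r = 0.72 (adjusted p = 0.0158, permutation within groups) and rho = 0.74 (adjusted p = 0.0127). Leaving *Mmrn2* and *Lyve1* out of the endothelial level, likewise chosen after seeing the data, gave r = 0.85 over the remaining 17 markers. The dimmer *Hgf* probe gave r = 0.48 (permutation p = 0.0314, adjusted p = 0.0471) and rho = 0.605 (adjusted p = 0.0111). With slide means removed r was 0.48 (permutation p = 0.0537, adjusted p = 0.107) and rho 0.516 (adjusted p = 0.0918). These were adjusted together with the cell type lists below, over 6 relations.

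**Figure D4:**
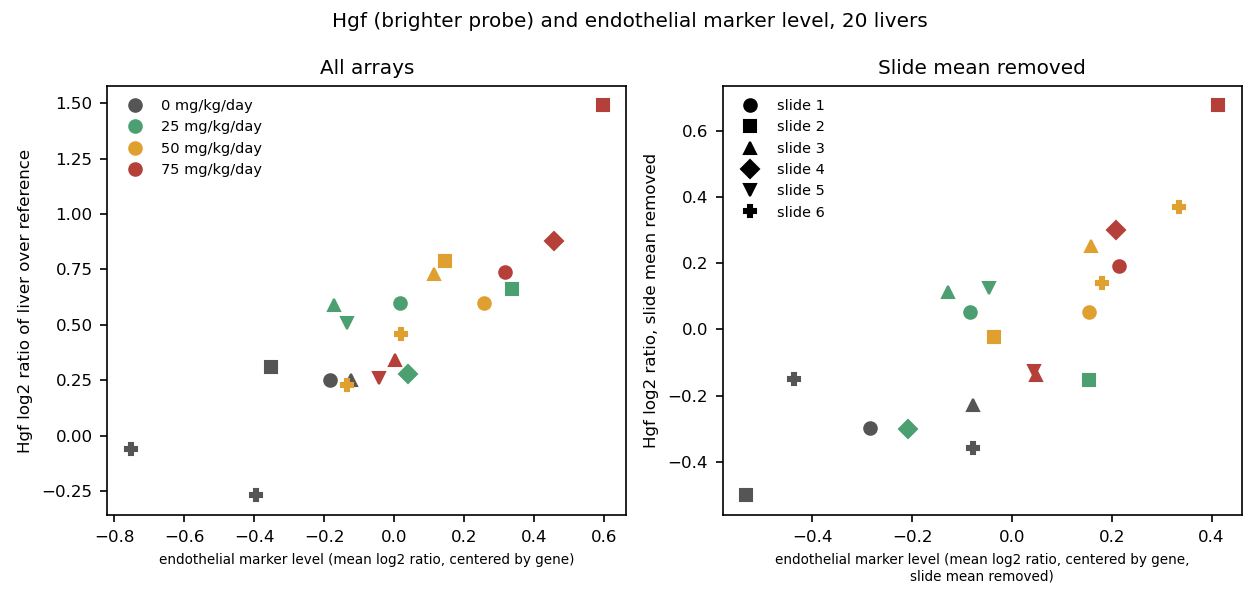
Log2 ratio of the brighter *Hgf* probe (vertical axis) against the endothelial level, the mean centered log2 ratio of 19 markers (horizontal axis), for 20 livers colored by dose and shaped by slide, as measured on the left and with slide means removed on the right. Livers with a higher endothelial level have a higher *Hgf* ratio in both panels, at r = 0.85 and 0.80.

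*Vegfc* also correlated with the endothelial level, at r = 0.59 (permutation p = 0.00593, adjusted p = 0.0237) and rho = 0.54 (adjusted p = 0.0643). It missed the threshold with slide means removed (r = 0.48, adjusted p = 0.232, rho = 0.59, adjusted p = 0.0842) and without the 2 arrays at the ends (r = 0.37, adjusted p = 0.216, rho = 0.37, adjusted p = 0.262). With group means removed and all 20 arrays kept, it passed by r (0.67, adjusted p = 0.0216) but not by rho (0.61, adjusted p = 0.0568). For the other 6 ligands r over all arrays lay between -0.29 for *Pdgfb* and 0.27 for *Angpt2*, at adjusted p of 0.443 or more. *Vegfa* gave r = 0.02 and, with slide means removed, 0.34 (adjusted p = 0.489). *Angpt2* gave 0.48 with slide means removed (adjusted p = 0.348) and 0.03 without the 2 arrays at the ends.

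Other cell types of the liver moved with *Hgf* as well, and their levels were compared after seeing the data, with adjustment over 6 relations. The 12 stellate cell and fibroblast markers, all present, gave r = 0.74 with *Hgf* (adjusted p = 0.0015) and 0.67 with slide means removed (adjusted p = 0.0624). By rank the relation passed in both settings, at rho = 0.76 (permutation, adjusted p = 0.00102) and 0.77 with slide means removed (adjusted p = 0.0256). Their mean ran from -0.54 to 0.09 in the controls and from -0.11 to 0.22 at 75 mg/kg/day, and 8 of 12 had a positive change there with 0 called. Their median change of 0.24 at that dose became 0.11 with slide as a block, and their level differed by 0.11, 0.36 and -0.09 on slides 1, 2 and 3. *Ngfr* gave 0.77 (adjusted p = 0.0755, limma), *Dcn* 0.80 (adjusted p = 0.188) and *Col3a1* 0.45 (adjusted p = 0.357). The Kupffer cell markers, 10 of 10 present, gave r = 0.57 (adjusted p = 0.0143) and 0.45 with slide means removed (adjusted p = 0.144). Their mean ran from -0.41 to -0.05 in the controls and from -0.29 to 0.30 at 75 mg/kg/day, where 9 of 10 were positive and the scavenger receptor *Marco* was called at 2.19 (adjusted p = 0.00148, limma). Their median change of 0.14 became 0.00 with slide as a block, and their level differed by -0.06, 0.35 and -0.14 on slides 1, 2 and 3.

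With slide as a block the median change of the hepatocyte markers at 75 mg/kg/day was 0.25, and their level differed from the control by 0.77, 0.38 and -0.20 on slides 1, 2 and 3. They gave r = 0.41 with *Hgf* (permutation p = 0.0777). Without the block all 9 had a positive change at that dose, with a median of 0.40 and 0 called (*Ass1* 0.73, *Hnf4a* 0.29 and *Serpina1c* 0.40 had the smallest p values), and their mean ran from -0.83 to 0.37 in the controls and from -0.06 to 0.24 at 75 mg/kg/day. Platelet and megakaryocyte markers, 5 of 6 present, gave r = 0.60 (adjusted p = 0.0143) and 0.43 with slide means removed (adjusted p = 0.107), and bile duct markers, 5 of 6 present, gave -0.24 (permutation p = 0.311). Neither list held a called gene, and the smallest p values at 75 mg/kg/day belonged to *Ppbp* (0.33), *Gp9* (0.25) and *Pf4* (0.22) of platelets and to *Epcam* (-0.29), *Krt7* (-0.17) and *Spp1* (0.13) of bile ducts. The part of these cell types in the *Hgf* values was not tested, and the correlations with different lists were not compared by a test.

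The genes most like each ligand over the 20 arrays, with slide means removed, were found among 12808 genes as a description, where the highest of so many correlations is large for any gene. *Hgf* was most like *Kcnj8*, a potassium channel subunit of vascular mural cells (r = 0.90, log2 fold change 0.75 at 75 mg/kg/day) and *Havcr2*, an immune checkpoint receptor (r = 0.90, 0.18). *Vegfa* was most like *Mtcp1* (r = 0.92) and the splicing factor gene *Sf3b1* (r = 0.87), and *Vegfc* like the corepressor gene *Bcor* (r = 0.82) and *Tmc7* (r = 0.81). *Vegfb* by its brighter probe was most like *Cul7* and *Evc2* (r = 0.96 and 0.95), *Pgf* like *Epb41l4a* and *Ppp1r13l* (r = 0.89 each) and *Angpt2* like *Galnt11* and *Arhgef6* (r = 0.88 each). *Pdgfb* was most like the water channel gene *Aqp3* (r = 0.81) and *Snai2* (r = 0.80), and *Apln* like *Pik3r5* (r = 0.96). Apart from *Kcnj8*, all of these similar genes had a log2 fold change between -0.40 and 0.22 at 75 mg/kg/day.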

How the data were processed

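Liver RNA (Cyanine 5) and universal mouse reference RNA (Cyanine 3) were hybridized together on Agilent arrays. Median spot intensities were deposited by the authors as read by the scanner software, without normalization, beside processed intensities and log2 ratios that the authors normalized within each array. All 20 arrays were kept, although the methods removed 1 that is not named. The lowest dose is 25 mg/kg/day in the labels and 24 in the design text.

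Median intensities were background corrected (normexp, offset 50) and normalized by loess within each array, outlier spots were dropped, and spots were averaged per probe. Presence required a liver signal above the mean plus 3 SDs (5% trim) of 153 negative control spots. Each dose was contrasted with control in a single limma 3.58.1 model (R 4.3.3). MAANOVA was not used here, and an Fs statistic with 100 residual shufflings stood in as an alternative. The code was tested on simulated data. Symbols came from RefSeq accessions, and a gene is represented by its brightest present probe. The number of arrays, 5 per group, limits the precision, and no probe sequence or protein table was used here. Array correlations with the ratios of the authors were 0.994 to 0.996. Drawing used Python 3.11.15 and matplotlib 3.10.9.

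The ligands and gene lists were chosen with earlier results of these data known. From other lists, genes called at any dose are named, or else the 3 with the smallest p at 75 mg/kg/day, and for each ligand the 2 most similar genes, of which 1 is not reported here. Each array holds RNA of 1 mouse.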

Additional observations from a re-analysis of the deposited data

Results flagged for a closer look

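Of 52 groups of 5 livers (13 probes in 4 groups), 3 held a liver apart from the rest by Dixon's criterion at 95%, which chance gives in about 1 of 20 groups. All 3 were in the 25 mg/kg/day group. *Vegfa* by its brightest probe read -0.36 in replicate 6, against 0.01 to 0.15 in the other 4 livers. *Vegfa* by probe 3 read 1.02 in replicate 7, against -0.24 to 0.07. *Apln* by its second probe read -3.45 in replicate 6, against -3.16 to -3.04, and its first probe was also lowest in that liver, at -2.95.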

How the results depend on the processing

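The count of called ligand probes was 0 at each dose under every alternative run, including other signals and normalizations, other filters, slide as a block, other adjustments, the Fs statistic and each array left out. With slide as a fixed block the dose trend called 1 ligand probe, the second of *Vegfb*, and with slide as a random block 0. Over all settings the change of *Hgf* was positive at each dose and ran at 75 mg/kg/day from 0.40, with the mean of its 2 probes, to 0.90, with processed signals. *Apln* was negative throughout.

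Small changes turned sign. *Angpt2* at 50 and 75 mg/kg/day was -0.01 and -0.05 without background correction and -0.01 and -0.06 in the ratios of the authors. *Vegfc* at 25 mg/kg/day was -0.03 with processed signals and -0.02 in the ratios of the authors. With the liver channel alone, *Vegfb* was 0.23 and *Vegfa* -0.01 at 50 mg/kg/day. With slide as a fixed block, *Vegfa* was 0.03 at 25 and *Pgf* -0.08 at 75 mg/kg/day. The mean of all probes gave *Vegfa* 0.02 at 25 mg/kg/day and *Vegfb* 0.13 and 0.15 at 50 and 75 mg/kg/day. With 1 array left out, *Vegfa* ran from -0.07 to 0.08 at 25 and from -0.01 to 0.11 at 50 mg/kg/day, *Vegfc* from -0.06 to 0.09 at 25, and at 75 mg/kg/day *Vegfb* from -0.16 to 0.02, *Pgf* from -0.11 to 0.19 and *Angpt2* from -0.07 to 0.08. The cause was not tested.

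Correlations with the endothelial level changed for *Vegfc* (0.48 with slide means removed, 0.37 without the 2 arrays at the ends), *Vegfa* (0.34 with slide means removed, -0.09 without those arrays, -0.01 with group means removed), *Angpt2* (0.48 with slide means removed, 0.03 without those arrays) and *Vegfb* (-0.06 with slide means removed). *Apln* gave 0.20 with group means removed but -0.44 without those arrays (permutation, adjusted p = 0.187). *Pdgfb* gave 0.08 and -0.46 in the same settings (permutation, adjusted p = 0.187 for the latter). The group means were removed after seeing the data. Transcripts called over the whole array at 75 mg/kg/day numbered 36 higher and 1 lower. Over the settings, those called higher ran from 5, with only the control and 75 mg/kg/day arrays, to 65, without 75 mg/kg/day replicate 19. With slide as a random block 57 were called higher. Mice could not be paired across groups because each gave 1 array at 1 dose. Arrays were instead matched by slide, as a block and within slides.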
